A study of Mus musculus with 9 samples.

Results

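The proteasome subunit genes were described across neutrophils from the bone marrow, blood and tumors of mice with a pancreatic tumor. Members were all rows of the deposited expression table whose gene symbol has the form Psma, Psmb, Psmc, Psmd, Psme, Psmf or Psmg followed by a number, without the interferon-inducible subunits Psmb8 and Psmb9, and this rule found 46 of 46517 rows. By symbol they fall into 8 alpha-ring and 9 beta-ring genes of the 20S core and 6 ATPase and 14 non-ATPase genes of the 19S cap. The others are 4 activators, 1 inhibitor and 4 assembly chaperones of the Psmg family. The non-ATPase genes are all Psmd symbols and include assembly chaperones of the cap, such as Psmd9 and Psmd10. The mice were C57BL/6 and were called orthotopic transplanted (OT) because cells of a luciferase-expressing line from pancreatic tumors of KPC mice had been injected into the pancreas. On day 27 after transplantation, live CD45+ cells without CD3, B220 or NK1.1 and with Ly6G and Ly6C were sorted, and the sorted bone marrow cells are labelled Ly6G high. All 3 compartments came from tumor-bearing mice, with 3 libraries each, and, per the study, from pooled mice in independent experiments with the compartments taken from the same mice, so that the spread between libraries is between pools and not between single animals.

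The proteasome is the protease that degrades proteins tagged with ubiquitin. Its 20S core is a barrel of outer alpha rings and inner beta rings, and the active sites face the inside of the beta rings. The 19S cap sits on the ends of the barrel, where its ring of ATPases unfolds the substrate and its non-ATPase subunits bind and remove the ubiquitin. Activators of the Psme family can replace the cap, and the Psmg proteins help to assemble the core. In leukocytes, interferon-inducible subunits and the Psme1 and Psme2 activator form the immunoproteasome, which supplies peptides for MHC class I. Neutrophils are short-lived cells that make their granule proteins in the bone marrow before release into the blood.

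The values were log2 FPKM (fragments per kilobase of gene, scaled for depth), and whole reads, 4580807 to 7949367 in a library, could be worked back from them. The neutrophil markers Cxcr2 (9497 to 46509 reads) and Csf3r (13802 to 72754 reads) were present in all 9 libraries, but the 10 mature neutrophil markers together were lower in tumor (15340 to 21490 RPM, reads scaled to a common library depth) than in blood (43730 to 46110) and bone marrow (52410 to 56320). S100a8 and S100a9, calcium-binding proteins of neutrophils, and the leukocyte marker Ptprc had their fewest reads in tumor, at 5574 to 6690, 3907 to 5246 and 5844 to 9133. Ly6g, the sorting marker, was highest in bone marrow (4527 to 5241 reads), lower in blood (580 to 654) and lowest in tumor (200 to 456). The 10 immature neutrophil markers reached 95960 to 109900 RPM in the bone marrow libraries, 3697 to 4579 for blood and 6570 to 9955 for tumor, and 11 cell cycle genes reached 893 to 1094, 62.5 to 72.9 and 354 to 510. Markers of other cells also differed between the compartments. The 10 tumor epithelium markers summed to 2683 to 5042 RPM in tumor against 49.7 to 239 in blood and 63.4 to 65.6 in bone marrow, with Krt8 at 6601 to 14591 reads in tumor, 406 in blood replicate 2 and at most 10 in the other libraries. The 10 fibroblast markers summed to 1197 to 1334 in tumor against at most 91.3 elsewhere, and the 10 acinar markers to 628 to 2329 against at most 9.49. In blood, the 8 platelet markers summed to 916 to 1234 RPM, against 90.8 to 139 in bone marrow and 30.0 to 51.8 in tumor. The 7 red cell markers found in the data summed to 292 to 605 in blood against at most 142 elsewhere. The 10 macrophage markers summed to 1672 to 1859 in blood against at most 768. The part of these cells in the values below was not tested. In such bulk libraries fewer cells of a type and less RNA per cell cannot be told apart.

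Most proteasome genes were lower in blood neutrophils than in bone marrow neutrophils, and many were higher again in tumor neutrophils. Of the 46 members, 37 had log2 FPKM over 0 in at least 3 libraries and were tested together with all 7794 genes that passed this filter, by limma with Benjamini-Hochberg adjustment over all of them and a threshold of 0.05. In blood against bone marrow, 25 of the 37 (67.6%) were lower and 0 were higher, where 23.6% of all tested genes were lower and 20.6% higher. None of the members higher in blood by value had an unadjusted p of limma under 0.05. Limma-voom on the recovered reads called 0 of 44 members higher, where 13.8% of all 17714 genes in that fit were higher. In tumor against blood, 19 (51.4%) were higher and 3 (8.11%) lower, against a background of 28.1% and 34.5%. In tumor against bone marrow, 2 (5.41%) were higher and 9 (24.3%) lower, and the background was 22.4% and 32.9%. The median log2 fold change of the tested members was -0.74 in blood against bone marrow (all genes -0.04), 0.62 in tumor against blood (all genes -0.17) and -0.13 in tumor against bone marrow (all genes -0.21). These comparisons share libraries in pairs and are not independent of each other.

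**Figure D1:**
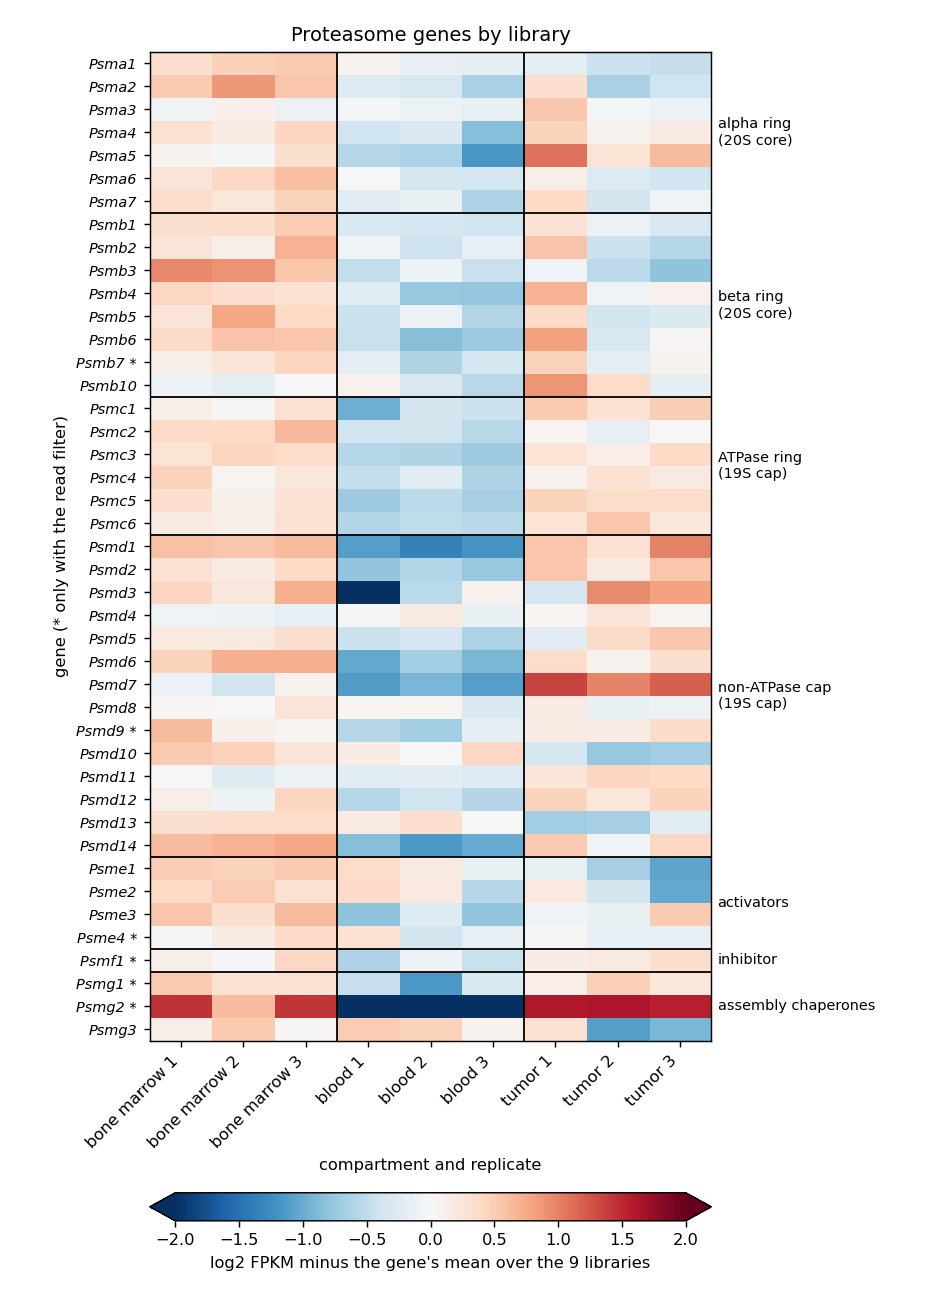
Log2 FPKM of each proteasome gene minus its own mean over the 9 libraries (colour), with genes in rows by subunit class and libraries in columns by compartment. Blood columns are mostly below the gene mean, the tumor columns are mostly above it for the ATPase and many non-ATPase genes, and tumor replicate 1 is above the other tumor libraries in every tested core gene.

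The scaling of the libraries bears on the tumor comparisons. The deposited values were made with scaled library sizes, with factors of 0.796 to 0.881 in bone marrow and blood and 1.085 to 1.221 in tumor. With plain totals of reads in their place, the median of all genes moved up by 0.45 in both tumor comparisons and by 0.003 in blood against bone marrow. The members then split into 27 higher and 0 lower in tumor against blood and into 12 higher and 4 lower in tumor against bone marrow, while the 25 lower and 0 higher in blood against bone marrow did not change. The background moved too, to 37.5% of all genes higher and 24.4% lower in tumor against blood, 33.4% and 21% in tumor against bone marrow, and 21.2% and 23.1% in blood against bone marrow. With plain totals the share of members higher in tumor than in blood (73%) was thus above that of all genes, and the share higher than in bone marrow (32.4%) was near it. The median against bone marrow turned from -0.13 to 0.33, as that of all genes did from -0.21 to 0.25.

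**Figure D2:**
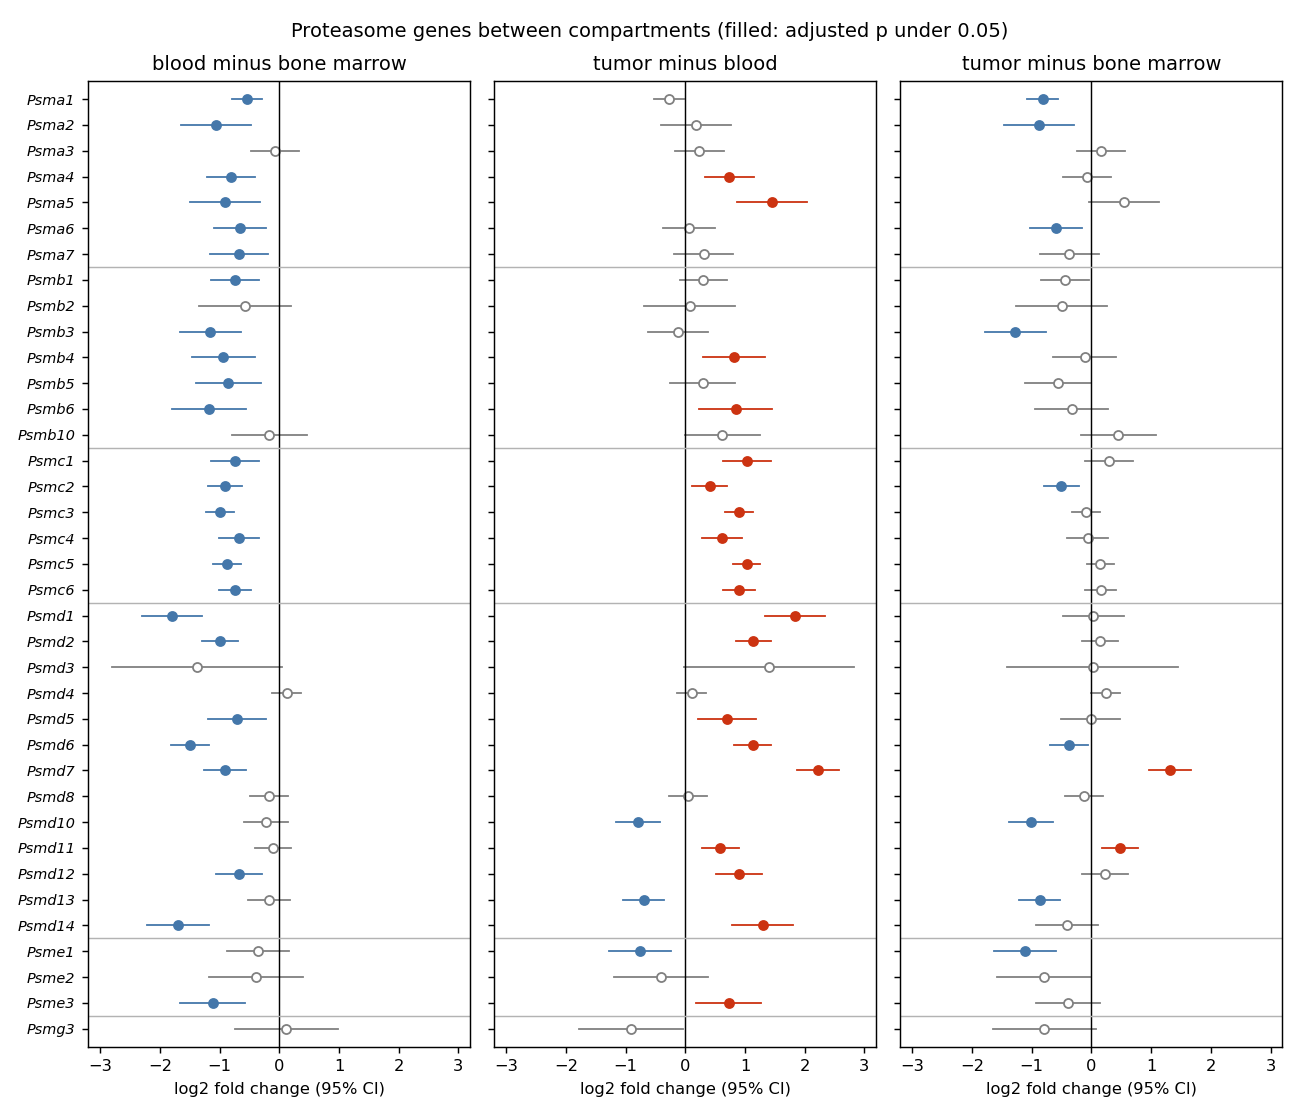
Log2 fold change (points) with its 95% confidence interval (lines) of the 37 tested proteasome genes in blood minus bone marrow, tumor minus blood and tumor minus bone marrow, with filled points where the adjusted p passed 0.05 (blue lower, red higher) and grey lines between subunit classes. All 6 ATPase genes (Psmc1 to Psmc6) are filled on the left of 0 in the first panel and on the right in the second.

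The filter on FPKM left out members for their gene structure as well as for low expression, since the deposited FPKM used the length of the whole gene with its introns. With a filter of at least 10 reads in 3 libraries, which was chosen after the values were seen, 43 members were tested among 13014 genes. Then 27 members (62.8%) were lower in blood than in bone marrow and 0 higher (background 23.6% and 16.9%), 22 (51.2%) were higher and 3 (6.98%) lower in tumor than in blood (background 38.5% and 26.6%), and 2 (4.65%) were higher and 8 (18.6%) lower in tumor than in bone marrow (background 29.4% and 25.2%). The 3 members still left out had few reads. Psmb11, the beta subunit of cortical thymus epithelium, had 0 reads in all 9 libraries. Psma8, an alpha subunit known from the testis, had 4, 0 and 4 reads in bone marrow and 0 in blood and tumor, and Psmg4 had 6, 2 and 4 reads in bone marrow, 1, 0 and 2 in blood and 6, 5 and 5 in tumor.

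Levels between genes were compared as exon RPKM, RPM per kilobase of exon, with exon lengths from GENCODE M21. In bone marrow the highest members were the alpha subunits Psma6 with 75.8 ± 9.06 (SD, n = 3) and Psma1 with 71.3 ± 4.19, which did not differ beyond their spread, followed by the catalytic subunit Psmb5 with 55.2 ± 10.5, where the median of all tested genes was 7.89. Psma1 with 49.1 ± 4.71 and Psma6 with 47.9 ± 6.79 were also highest in blood. In tumor the order was led by Psma5 with 62.4 ± 17.7 and the ATPase gene Psmc1 with 54.6 ± 4.75, again within each other's spread. Psmd7 moved from place 29 in bone marrow (15.6 ± 2.43) and 30 in blood (8.26 ± 0.665) to place 8 in tumor (38.8 ± 4.71), and Psme1 from place 4 in bone marrow (48.6 ± 1.23) and blood (38.3 ± 6.58) to place 19 in tumor (23.2 ± 7.36). The class medians of the core and cap were 22.5 to 35.1 in bone marrow, against 3.03 for the assembly chaperones.

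**Figure D3:**
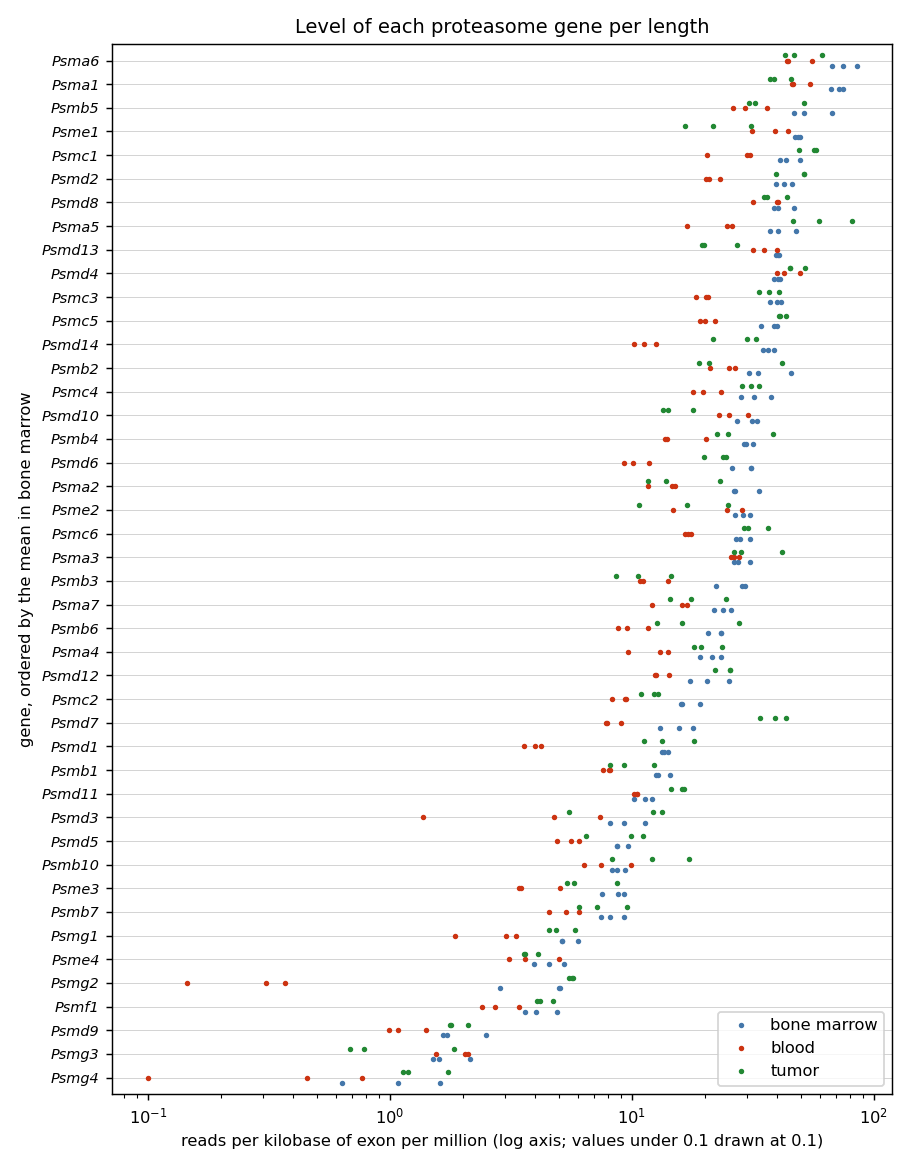
Exon RPKM, RPM per kilobase of exon (log axis), of each proteasome gene with at least 20 reads in all, with 1 point per library coloured by compartment genes ordered by their mean in bone marrow and values under 0.1 drawn at 0.1. Psmd7 has its tumor points far to the right of bone marrow and blood, Psme1 and Psmd13 have theirs to the left, and Psmg2 has its blood points far to the left.

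The alpha ring, which forms the gate of the core, was lower in blood than in bone marrow in 6 of 7 tested genes (median log2 fold change -0.68), the exception being Psma3 (-0.08 ± 0.17, SE). In tumor against blood 2 genes rose, and in tumor against bone marrow 3 fell. Psma5 had log2 FPKM of 1.20, 1.10 and 1.46 in the bone marrow libraries, 0.57, 0.50 and -0.04 in blood and 2.22, 1.41 and 1.77 in tumor. All blood libraries were below all others, and only tumor replicate 2 lay within the bone marrow range. It was 2.74-fold higher in tumor than in blood (1.46 ± 0.25 on the log2 scale, adjusted p = 0.00141). Psma5 fell by 0.91 ± 0.25 in blood against bone marrow (adjusted p = 0.0213). Its difference between tumor and bone marrow (0.55 ± 0.25) did not pass (adjusted p = 0.102). Plain totals gave 1.00 for that difference, which then passed (adjusted p = 0.0155). Psma4 followed the same order at 2.81, 2.65 and 2.93 in bone marrow, 2.11, 2.21 and 1.66 in blood and 2.95, 2.57 and 2.66 in tumor, so that only blood stood apart. It rose by 0.74 ± 0.17 from blood to tumor (adjusted p = 0.00666) and fell by 0.81 ± 0.17 from bone marrow to blood (adjusted p = 0.00726).

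Other alpha genes were low in blood and tumor alike. Psma1 had log2 FPKM of 4.10, 4.21 and 4.27 in bone marrow, 3.81, 3.58 and 3.57 in blood and 3.55, 3.31 and 3.26 in tumor, with no overlap between the 3 compartments. It fell by 0.54 ± 0.11 from bone marrow to blood (adjusted p = 0.00545) and by 0.81 ± 0.11 from bone marrow to tumor (adjusted p = 0.000456). Psma2 had 2.96, 3.31 and 2.98 in bone marrow, 2.16, 2.12 and 1.79 in blood and 2.77, 1.79 and 2.04 in tumor, where replicate 1 was close to bone marrow and the others were in the blood range. It was lower by 1.06 ± 0.25 in blood (adjusted p = 0.011) and by 0.88 ± 0.25 in tumor (adjusted p = 0.0183) than in bone marrow. Psma6, which with Psma1 had the highest level in bone marrow, was lower by 0.66 ± 0.19 in blood (adjusted p = 0.0226) and by 0.60 ± 0.19 in tumor (adjusted p = 0.0267), at 1.28, 1.43 and 1.62 in bone marrow, 1.01, 0.67 and 0.67 in blood and 1.14, 0.75 and 0.64 in tumor. The calls of Psma2 in tumor against bone marrow and of Psma5, Psma6 and Psma7 against bone marrow were lost without single libraries, with adjusted p of limma up to 0.0648 for Psma2 (without bone marrow replicate 2, tumor replicate 2 or tumor replicate 3), 0.073 for Psma5 in blood (without bone marrow replicate 1, bone marrow replicate 3 or blood replicate 3), 0.0795 for Psma6 in blood and 0.088 in tumor (without replicate 2 or 3 of either compartment compared) and 0.101 for Psma7 in blood (without any of the bone marrow libraries, blood replicate 1 or blood replicate 3). With plain totals the differences of Psma2 (-0.43) and Psma6 (-0.15) between tumor and bone marrow no longer passed.

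Of the beta ring, which holds the active sites, 5 of 7 tested genes were lower in blood than in bone marrow (median -0.85), 2 were higher in tumor than in blood and 1 was lower in tumor than in bone marrow. The catalytic subunits are Psmb5 with chymotrypsin-like, Psmb6 with caspase-like and Psmb7 with trypsin-like activity, and Psmb10 is the interferon-inducible counterpart of Psmb7. The stretches before the starts of Psmb5 (chr14:54618023-54618112, minus strand) and Psmb6 (chr11:70525267-70525356, plus strand) are shown because both hold the letters TGACNNNGC, the core of the antioxidant response element, in capitals. The sequences are from RefSeq, build GRCm38.p6, written 5′ to 3′ in the direction of the gene and ending before its first annotated exon.
Psmb5: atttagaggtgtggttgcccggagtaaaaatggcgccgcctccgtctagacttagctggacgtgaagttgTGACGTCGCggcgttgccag
Psmb6: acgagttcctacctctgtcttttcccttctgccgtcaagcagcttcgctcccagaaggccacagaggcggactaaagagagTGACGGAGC

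Psmb6 had log2 FPKM of 3.95, 4.14 and 4.14 in bone marrow, 3.13, 2.73 and 2.85 in blood and 4.38, 3.26 and 3.60 in tumor. Blood was below every other library, and the tumor libraries lay on both sides of bone marrow. It fell by 1.17 ± 0.26 from bone marrow to blood (adjusted p = 0.00874) and was 1.80-fold higher in tumor than in blood (0.84 ± 0.26, adjusted p = 0.0235). Psmb5 had 3.44, 3.96 and 3.59 in bone marrow, 2.77, 3.07 and 2.60 in blood and 3.58, 2.82 and 2.90 in tumor. Its 2 lower tumor libraries were in the blood range and tumor replicate 1 in the bone marrow range. It fell by 0.85 ± 0.24 from bone marrow to blood (adjusted p = 0.0212). Its differences between tumor and blood (0.29 ± 0.24, adjusted p = 0.319) and between tumor and bone marrow (-0.56 ± 0.24, adjusted p = 0.0764) did not pass. The difference from blood did pass with plain totals (0.74, adjusted p = 0.0205). That from bone marrow passed in limma-voom (-0.57, adjusted p = 0.0466) but not with plain totals (-0.11). The calls of Psmb5 in blood against bone marrow and of Psmb6 in tumor against blood were lost without single libraries, with adjusted p up to 0.0698 (without bone marrow replicate 2, blood replicate 1 or blood replicate 3) and 0.0737 (without blood replicate 2 or 3).

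Psmb10 was the beta gene with the highest tumor values relative to bone marrow, at 2.48, 2.41 and 2.59 in bone marrow, 2.67, 2.26 and 2.03 in blood and 3.47, 2.96 and 2.41 in tumor. The compartments overlapped, and its differences of 0.62 ± 0.27 from blood (adjusted p = 0.0772) and 0.45 ± 0.27 from bone marrow (adjusted p = 0.193) did not pass, though with plain totals both did (1.07, adjusted p = 0.0079, and 0.90, adjusted p = 0.0198). Psmb7 was tested only with the read filter, at 170, 158 and 211 reads in bone marrow, 82, 87 and 86 in blood and 202, 156 and 196 in tumor, and none of its comparisons passed (blood against bone marrow -0.64 ± 0.25, adjusted p = 0.0707). Among the structural beta genes, Psmb3 was lower in both other compartments, at 2.75, 2.70 and 2.35 in bone marrow, 1.30, 1.69 and 1.34 in blood and 1.72, 1.27 and 0.98 in tumor. Every bone marrow library was above every other one, with a fall of 1.15 ± 0.22 to blood (adjusted p = 0.00387) and of 1.27 ± 0.22 to tumor (adjusted p = 0.00161), and with plain totals the latter was still -0.82. Psmb4 had 4.43, 4.34 and 4.30 in bone marrow, 3.78, 3.26 and 3.23 in blood and 4.71, 3.93 and 4.09 in tumor. Blood was again lowest, by 0.93 ± 0.22 against bone marrow (adjusted p = 0.0113) and by 0.82 ± 0.22 against tumor (adjusted p = 0.013).

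The core genes shared a feature within the tumor libraries, chosen for description after it was seen. Tumor replicate 1 was the highest of the 3 tumor libraries in 14 of 14 tested core genes, against 10 of 19 cap genes and 31% of all tested genes. The median difference of tumor replicate 1 from the mean of the other tumor libraries was 0.63 on the log2 scale in the core, 0.08 in the cap and 0.02 over all genes. This difference moved with the length of the exons over all tested genes, from a median of 0.26, among 5 groups of equal size, in the group with the shortest exons (10 to 1196 bases) and 0.09 in the next (1197 to 2570 bases) to 0.001, -0.03 and -0.004 in the others. The tested core genes had a median exon length of 2126 bases and the cap genes of 2820 bases, and the part of length in the difference was not tested. Without tumor replicate 1, 15 members were lower in tumor than in bone marrow (9 of 14 core genes in place of 4) and 5 were lower in tumor than in blood, while the 19 higher in tumor than in blood and the 2 higher than in bone marrow did not change in number. Of the members this was 40.5% lower than in bone marrow and 13.5% lower than in blood, against 30.9% and 33.2% of all genes in the same fit, of which 19.7% and 26.4% were higher. Psmb5 was then lower by 0.80, Psmb6 by 0.65 and Psmb2 by 0.85 in tumor than in bone marrow, each past the threshold.

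**Figure D4:**
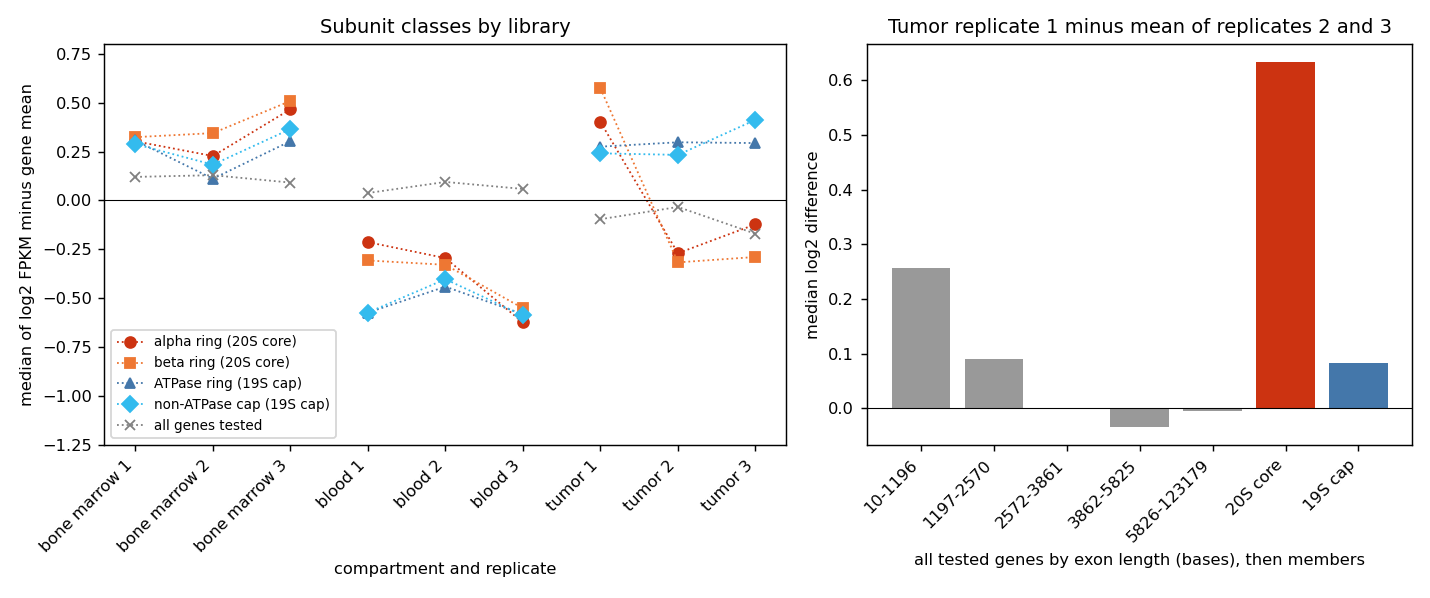
Left, median over the tested genes of each subunit class of log2 FPKM minus the gene's mean, for each library. Right, median log2 difference of tumor replicate 1 from the mean of tumor replicates 2 and 3, for all tested genes in 5 groups of equal size by exon length (grey) and for the 20S core and the 19S cap; both core rings are at 0.40 and 0.57 in tumor replicate 1 and between -0.32 and -0.12 in the other tumor libraries, while the cap classes stay between 0.23 and 0.41.

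The ATPase ring of the cap, which unfolds the substrate and pushes it into the core, changed in all of its genes. All 6 were lower in blood than in bone marrow (median -0.81, range -0.99 to -0.68), and all 6 were higher in tumor than in blood (median 0.90, range 0.41 to 1.03). Summed over the 6 genes the level was 268 to 303 RPM in blood, against 471 to 526 in bone marrow and 495 to 503 in tumor. Psmc5 had log2 FPKM of 3.0, 2.77 and 2.95 in bone marrow, 1.95, 2.15 and 2.01 in blood and 3.12, 3.04 and 3.03 in tumor, with blood far below the others. It was 2.04-fold higher in tumor than in blood (1.03 ± 0.10, adjusted p = 6.34e-05) and fell by 0.88 ± 0.10 from bone marrow to blood (adjusted p = 0.000339). Psmc1 had 2.67, 2.59 and 2.86 in bone marrow, 1.58, 2.18 and 2.13 in blood and 3.09, 2.85 and 3.05 in tumor. It rose 2.04-fold from blood to tumor (1.03 ± 0.17, adjusted p = 0.00122), and the call in blood against bone marrow (-0.74 ± 0.17) had an adjusted p of 0.0105.

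Psmc3, with 2.97, 3.12 and 3.07 in bone marrow, 2.13, 2.10 and 1.96 in blood and 2.97, 2.82 and 3.10 in tumor, showed the largest ATPase fall from bone marrow to blood (0.99 ± 0.10, adjusted p = 0.000226), and it rose by 0.90 ± 0.10 from blood to tumor (adjusted p = 0.000152). Psmc6 rose by 0.90 ± 0.11 from blood to tumor (adjusted p = 0.000275), at 2.35, 2.30 and 2.48 in bone marrow, 1.60, 1.67 and 1.63 in blood and 2.46, 2.73 and 2.41 in tumor. In tumor against bone marrow the ring had a median of 0.04 and only Psmc2 passed. Psmc2 had 2.12, 2.13 and 2.38 in bone marrow, 1.35, 1.37 and 1.18 in blood and 1.80, 1.57 and 1.75 in tumor, and thus tumor values between the other compartments with no overlap. It fell by 0.91 ± 0.12 from bone marrow to blood (adjusted p = 0.00086) and was lower by 0.50 ± 0.12 in tumor than in bone marrow (adjusted p = 0.00987), a difference of -0.05 with plain totals. Its rise of 0.41 ± 0.12 from blood to tumor (adjusted p = 0.0211) was lost without blood replicate 3, tumor replicate 1 or tumor replicate 3 (adjusted p up to 0.0701). With plain totals 4 ATPase genes were higher in tumor than in bone marrow and 0 lower, so that this comparison depended on the scaling, whereas all 6 remained lower in blood than in bone marrow and higher in tumor than in blood.

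Of the 13 tested non-ATPase genes of the cap, 7 were lower in blood than in bone marrow, 8 were higher and 2 lower in tumor than in blood, and 2 were higher and 3 lower in tumor than in bone marrow. The scaffold subunits that hold the cap together include Psmd1 and Psmd2, and Psmd14 is the enzyme that cuts the ubiquitin chain from the substrate. Psmd1 (chr1:86064387-86139151, plus strand) had log2 FPKM of 0.40, 0.37 and 0.45 in bone marrow, -1.29, -1.52 and -1.36 in blood and 0.38, 0.13 and 0.82 in tumor. It was 3.48-fold lower in blood than in bone marrow (-1.80 ± 0.22, adjusted p = 0.000478) and 3.57-fold lower in blood than in tumor (adjusted p = 0.000197), while tumor and bone marrow differed by 0.03 ± 0.22. Psmd14 (chr2:61711694-61800376, plus strand) had 0.15, 0.22 and 0.30 in bone marrow, -1.32, -1.62 and -1.48 in blood and 0.05, -0.53 and -0.07 in tumor. Blood was far below both, by 1.70 ± 0.22 against bone marrow (adjusted p = 0.000709) and by 1.29 ± 0.22 against tumor (adjusted p = 0.00135).

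Psmd6, another subunit of the lid that carries Psmd14, fell by 1.5 ± 0.14 from bone marrow to blood (adjusted p = 0.000127), at 3.05, 3.31 and 3.31 in bone marrow, 1.57, 1.91 and 1.69 in blood and 2.96, 2.67 and 2.92 in tumor. Its rise of 1.13 ± 0.14 from blood to tumor passed (adjusted p = 0.000208). Its difference between tumor and bone marrow (-0.37 ± 0.14) was just past the threshold (adjusted p = 0.0479), was lost without 6 of the 9 libraries in turn (adjusted p up to 0.135) and was 0.08 with plain totals. Psmd3 was singled out after its values were seen because its libraries disagreed, with 27, 133 and 173 reads in blood and 170, 503 and 482 in tumor. Replicate 1 was lowest in both compartments. The difference of Psmd3 between tumor and blood (1.40 ± 0.61) did not pass (adjusted p = 0.0799). It did pass without tumor replicate 1 (1.80), with plain totals (1.85, adjusted p = 0.0277) and in limma-voom (1.35, adjusted p = 0.0258).

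Psmd7 (chr8:107580381-107588464, minus strand), the inactive partner of Psmd14 in the cap, was the gene with the largest rise in tumor among the 37 tested. Its log2 FPKM was 2.14, 1.88 and 2.33 in bone marrow, 1.13, 1.34 and 1.15 in blood and 3.60, 3.25 and 3.44 in tumor, from 168 to 270, 70 to 114 and 581 to 699 reads. The lowest tumor library was above the highest bone marrow library, and the lowest bone marrow library above the highest blood library. It was 4.67-fold higher in tumor than in blood (2.22 ± 0.15, adjusted p = 1.23e-05), 2.49-fold higher in tumor than in bone marrow (1.32 ± 0.15, adjusted p = 0.000188) and lower by 0.91 ± 0.15 in blood than in bone marrow (adjusted p = 0.00206). Psmd11, a lid subunit, was the other gene that passed in tumor against bone marrow, at 0.80, 0.55 and 0.70 in bone marrow, 0.59, 0.59 and 0.55 in blood and 1.05, 1.23 and 1.21 in tumor. It was higher by 0.59 ± 0.13 than in blood (adjusted p = 0.00525) and by 0.48 ± 0.13 than in bone marrow (adjusted p = 0.0159), and the latter call was lost without bone marrow replicate 2 (adjusted p = 0.056).

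Psmd10 and Psmd13 were cap genes lower in tumor than in blood, and they were among the 4 lower than in bone marrow, with Psmc2 and Psmd6. Psmd10 (chrX:140948429-140956728, minus strand) encodes gankyrin, a chaperone for assembly of the cap that is not part of the finished particle. It had log2 FPKM of 2.54, 2.48 and 2.27 in bone marrow, 2.17, 2.03 and 2.43 in blood and 1.67, 1.26 and 1.33 in tumor. All tumor libraries were below all others, with a difference of -1.01 ± 0.16 from bone marrow (adjusted p = 0.00107) and of -0.79 ± 0.16 from blood (adjusted p = 0.00311). Psmd13 (chr7:140881968-140898643, plus strand), a lid subunit, had 3.0, 3.03 and 3.04 in bone marrow, 2.84, 3.02 and 2.69 in blood and 1.99, 2.02 and 2.46 in tumor. Tumor was again lowest, by 0.87 ± 0.15 against bone marrow (adjusted p = 0.00161) and by 0.69 ± 0.15 against blood (adjusted p = 0.00406). With plain totals the differences from bone marrow and blood were -0.56 and -0.34 for Psmd10, of which the first passed, and -0.41 and -0.24 for Psmd13, of which neither passed. Exons of Psmd13 overlap those of Sirt3, and 11 members in all, among them Psma4, Psma5, Psmb5, Psmb7, Psmc3, Psmd1, Psmd3, Psme1 and Psmg3, have exons that overlap another gene. The library preparation does not mark the strand, so that reads of such overlaps cannot be told apart. Psmd4, the ubiquitin receptor of the cap, and Psmd8 passed in no comparison, with log2 fold changes between -0.17 and 0.24. With plain totals, Psmd4 was higher in tumor than in blood (0.56, adjusted p = 0.000997) and in bone marrow (0.69, adjusted p = 0.000397), and Psmd8 than in blood (0.49, adjusted p = 0.0222). Psmd9, an assembly chaperone of the ATPase ring, was tested only with the read filter, at 121, 71 and 80 reads in bone marrow, 31, 40 and 48 in blood and 80, 98 and 121 in tumor. Blood was lowest, but neither the difference from bone marrow (-0.75 ± 0.31, adjusted p = 0.087) nor that of tumor from blood (0.71 ± 0.31, adjusted p = 0.0721) passed.

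**Figure D5:**
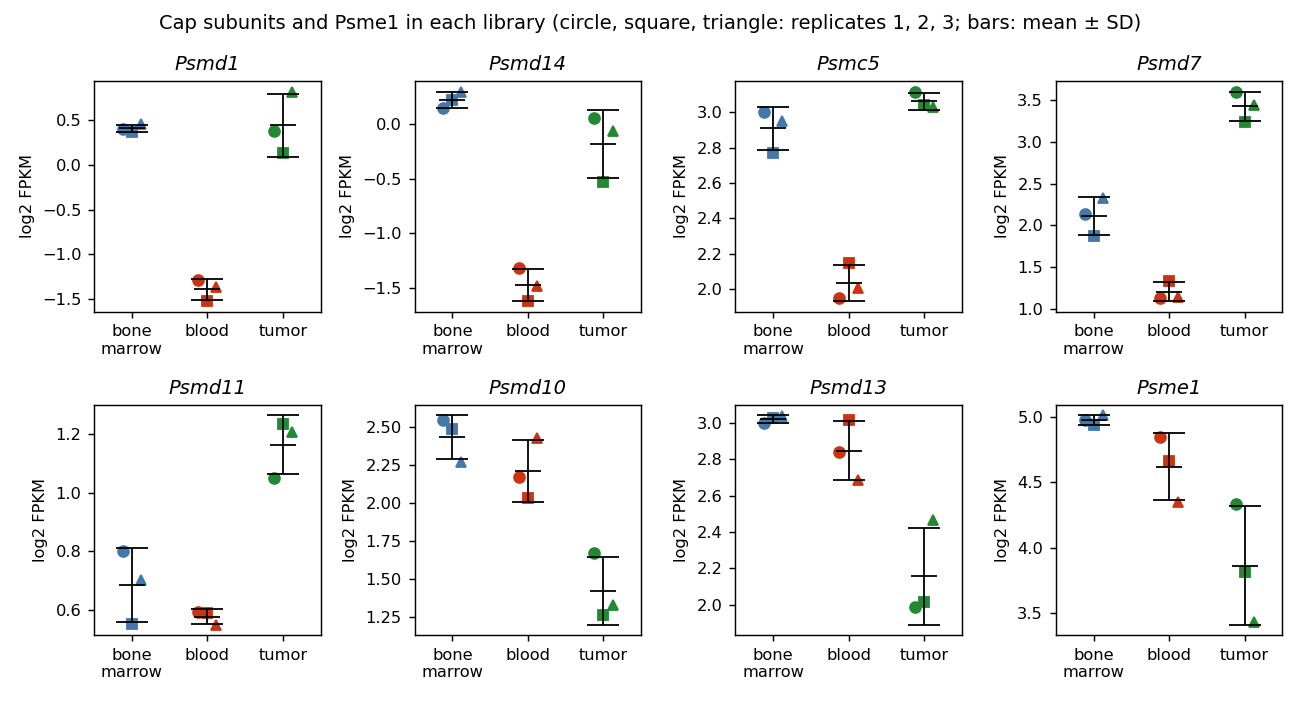
Log2 FPKM of 7 cap genes and the activator Psme1 in each library, with circles, squares and triangles for replicates 1, 2 and 3, and bars for the mean ± SD of each compartment (n = 3). Psmd1, Psmd14 and Psmc5 are lowest in blood, Psmd7 and Psmd11 highest in tumor, and Psmd10, Psmd13 and Psme1 lowest in tumor.

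The activators moved differently from each other. Psme1 (chr14:55578123-55581529, plus strand) and Psme2 (chr14:55587441-55591113, minus strand), neighbours on chromosome 14, encode the alpha and beta subunits of the interferon-inducible activator PA28. Psme1 had log2 FPKM of 4.98, 4.94 and 5.01 in bone marrow, 4.85, 4.67 and 4.35 in blood and 4.34, 3.82 and 3.43 in tumor. Every tumor library was below every other one, with a 2.17-fold difference from bone marrow (-1.12 ± 0.22, adjusted p = 0.00361) and a 1.69-fold difference from blood (-0.76 ± 0.22, adjusted p = 0.0182). The latter was lost without blood replicate 1 or blood replicate 2 (adjusted p up to 0.0616) and with plain totals (-0.31). Psme2 had 3.79, 3.89 and 3.68 in bone marrow, 3.78, 3.58 and 2.83 in blood and 3.58, 3.02 and 2.36 in tumor, with wide spread. Blood overlapped both other compartments, while every tumor library was below every bone marrow library. The differences of Psme2 in tumor from bone marrow (-0.80 ± 0.34, adjusted p = 0.0779) and from blood (-0.41 ± 0.34, adjusted p = 0.324) did not pass. The former passed with the replicate number as a block (adjusted p = 0.023), in limma-voom (0.0243) and without tumor replicate 1 (0.0241). It did not pass with plain totals (-0.34, adjusted p = 0.387). Psme2 may share reads with Psme2b, a near copy on chromosome 11 that had 60 to 222 reads. Psme3, the subunit of a nuclear activator, followed the pattern of the cap, at 1.82, 1.61 and 1.91 in bone marrow, 0.47, 1.02 and 0.49 in blood and 1.22, 1.13 and 1.80 in tumor. It fell by 1.12 ± 0.23 from bone marrow to blood (adjusted p = 0.00605) and rose by 0.73 ± 0.23 from blood to tumor (adjusted p = 0.0257), a call lost without blood replicate 1, blood replicate 3 or tumor replicate 3 (adjusted p up to 0.078). Psme4, the large activator PA200, was tested only with the read filter and passed in no comparison, with 215 to 293 bone marrow reads, 142 to 165 blood reads and 213 to 239 tumor reads.

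The inhibitor and the assembly chaperones had few reads. Psmf1, which encodes the inhibitor PI31, had 173, 132 and 211 reads in bone marrow, 61, 123 and 82 in blood and 163, 204 and 241 in tumor. With the read filter it was higher by 0.62 ± 0.20 in tumor than in blood (adjusted p = 0.0262), and its fall from bone marrow to blood (-0.56 ± 0.20) did not pass (adjusted p = 0.0564). Psmg1 and Psmg2 form a dimer that guides the alpha ring. Psmg1 had 54, 39 and 46 reads in bone marrow, 16, 14 and 21 in blood and 38, 59 and 52 in tumor, and was lower in blood than in bone marrow by 1.02 ± 0.26 (adjusted p = 0.0144) and than in tumor by 0.92 ± 0.26 (adjusted p = 0.0134). Neither call of Psmg1 held in limma-voom on the recovered reads (adjusted p = 0.0624 and 0.0561). Psmg2 showed the widest gap of all members, with 59, 28 and 58 reads in bone marrow, 1, 3 and 3 in blood and 61, 75 and 76 in tumor. The 212 reads of tumor against 7 of blood gave a depth-scaled ratio of 19.8 (95% interval 9.46 to 50, exact, counting error only), and the 145 reads of bone marrow a ratio of 15.5 (7.34 to 39.3). Both comparisons with blood passed with the read filter (adjusted p = 2.56e-05 for tumor and 0.000132 for bone marrow). Psmg3 had 31, 35 and 29 reads in bone marrow, 24, 33 and 21 in blood and 33, 15 and 18 in tumor, and passed in no comparison, though without tumor replicate 1 it was lower in tumor by 1.34 than in blood and by 1.22 than in bone marrow, each past the threshold.

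The other genes of the pathway, taken from a list of ubiquitin genes, proteasome partners and regulators of proteasome expression, changed in both directions at shares near those of all genes in the tumor comparisons. Of the 30 in the table, 24 were tested. In tumor against blood 7 were higher and 8 lower, in tumor against bone marrow 6 were higher and 8 lower, and in blood against bone marrow 3 were higher and 7 lower. These were 29.2% and 33.3% of the partners in tumor against blood (all genes 28.1% and 34.5%), 25% and 33.3% in tumor against bone marrow (22.4% and 32.9%), and 12.5% and 29.2% in blood against bone marrow (20.6% and 23.6%). With plain totals these splits were 12 and 4 (50% and 16.7%, all genes 37.5% and 24.4%), 10 and 2 (41.7% and 8.33%, all genes 33.4% and 21%), and 3 and 7. Psmb8 and Psmb9, interferon-inducible core subunits like Psmb10, were lower in tumor, where Psmb10 was not. Psmb9, the counterpart of Psmb6, had log2 FPKM of 3.21, 3.86 and 3.58 in bone marrow, 4.45, 4.25 and 3.96 in blood and 3.09, 2.42 and 1.40 in tumor, and was lower by 1.92 ± 0.40 in tumor than in blood (adjusted p = 0.00343) and by 1.24 ± 0.40 than in bone marrow (adjusted p = 0.029). Psmb8, the counterpart of Psmb5, had 4.52, 4.70 and 4.69 in bone marrow, 5.18, 5.08 and 4.68 in blood and 4.30, 3.76 and 3.38 in tumor. It was lower by 1.17 ± 0.23 in tumor than in blood (adjusted p = 0.00273) and by 0.83 ± 0.23 than in bone marrow (adjusted p = 0.017). With plain totals both remained lower in tumor than in blood, by 1.47 for Psmb9 and 0.72 for Psmb8, and neither passed against bone marrow (-0.79 and -0.37).

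Among the partners with a change of at least 1 on the log2 scale in tumor, several bind ubiquitin or the cap. Usp14, a deubiquitinase that docks on the cap, had 143, 117 and 329 reads in bone marrow, 43, 43 and 27 in blood and 391, 409 and 635 in tumor, and was higher in tumor than in blood by 3.04 ± 0.42 (adjusted p = 0.000425) and than in bone marrow by 1.21 ± 0.42 (adjusted p = 0.0401). Txnl1, a thioredoxin bound to the cap, was higher by 2.08 ± 0.16 (adjusted p = 2.41e-05) and 0.81 ± 0.16 (adjusted p = 0.00357), and Zfand2a, an arsenite-inducible factor that binds the proteasome, by 2.54 ± 0.21 (adjusted p = 2.89e-05) and 2.80 ± 0.21 (adjusted p = 2.13e-05). The shuttle factor Ubqln4 was higher by 3.32 ± 0.82 than in blood (adjusted p = 0.00816) and by 2.65 ± 0.82 than in bone marrow (adjusted p = 0.0255). Ubqln4 had few reads outside tumor, at 14, 41 and 39 in bone marrow and 3, 31 and 24 in blood, against 122, 244 and 283 in tumor. Ubb, a polyubiquitin gene, was lower by 1.11 ± 0.14 in tumor than in blood. Shfm1, a small cap subunit, was lower by 1.09 ± 0.27 than in blood and by 1.95 ± 0.27 than in bone marrow, Rps27a, a ubiquitin fusion gene, by 0.70 ± 0.18 and 1.09 ± 0.18, and Ngly1, which processes the factor encoded by Nfe2l1, by 1.75 ± 0.16 and 0.81 ± 0.16. With plain totals the falls of Shfm1 and Rps27a from blood (-0.64 and -0.26) and of Ngly1 from bone marrow (-0.36) no longer passed. Nfe2l1 is the transcription factor known to induce proteasome genes when the proteasome is inhibited. In tumor it differed by 0.36 ± 0.23 from blood and 0.09 ± 0.23 from bone marrow and did not pass. Plain totals made Nfe2l1 higher in tumor than in blood (0.81, adjusted p = 0.0138). Its difference from bone marrow then was 0.55 and did not pass (adjusted p = 0.0722).

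Motifs were searched on both strands in the RefSeq promoter windows (250 bases before to 50 bases after the start), which held 38 of the 46 members and 27025 genes. TGACNNNGC was found in 6 members (15.8%, all genes 14%), CCAAT, the NF-Y box, in 13 (34.2%, all genes 41.1%), TTCNNNGAA, the STAT site, in 2 (5.26%, all genes 9.55%) and the core of an interferon response element (GAAA, any 2 bases, GAAA) in 5 (13.2%, all genes 3.99%). No match of one motif overlapped a match of another in the members. The genes with TGACNNNGC were Psmb5, Psmb6, Psmc6, Psmd9, Psmd12 and Psme4, and those with the interferon response element core were Psmb3, Psmd4, Psmd9, Psme1 and Psmg4. The stretches before Psmc6 (chr14:45329574-45329663, plus strand), a gene of the ATPase ring with the first motif, and before Psmb3 (chr11:97703231-97703320, plus strand) and Psmd4 (chr3:95042645-95042734, minus strand), which carry the last, are shown with the match in capitals, each of which reads on the opposite strand.
Psmc6: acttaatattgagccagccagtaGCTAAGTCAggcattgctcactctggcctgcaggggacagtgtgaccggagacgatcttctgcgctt
Psmb3: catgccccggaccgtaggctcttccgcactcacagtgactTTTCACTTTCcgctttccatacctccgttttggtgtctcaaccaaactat
Psmd4: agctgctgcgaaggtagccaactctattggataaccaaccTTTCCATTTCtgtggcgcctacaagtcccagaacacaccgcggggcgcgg
Among the genes with the interferon response element core, with the deposited scaling, Psmb3 was lower in tumor and blood than in bone marrow. Psme1 was lower in tumor than in both other compartments. Psmd4, and Psmd9 with the read filter, passed in no comparison, and Psmg4 had too few reads for either filter. The part of the motifs in these values was not tested.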

How the data were processed

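Neutrophil RNA from 9 libraries (3 per compartment) was converted to cDNA with SMARTSeq v2. According to the study's methods and processing notes, reads were mapped with STAR 2.5.2b to GRCm38, counted with featureCounts 1.5.0 on GENCODE M7 genes and normalized with edgeR 3.8.6. The values deposited by the authors are log2 FPKM, whose gene length equals the genomic span for 39023 of 46005 genes found in GENCODE M21, the source of positions. Whole reads (tolerance 0.0001) were recovered for all 46517 genes and checked on simulated data. For the tests, limma (version 3.58.1, R 4.3.3) was run on the log2 values of all 9 libraries, with lmFit and trended eBayes, 1 coefficient per compartment and Benjamini-Hochberg adjustment over the 7794 genes that exceeded 0 in 3 or more of them. Errors on log2 fold changes are SE. The smallest p of an exact permutation test of 3 against 3 libraries is 0.1, so none is quoted. Counting intervals cover counting error only, since PCR copies were not marked. Members and lists were chosen with earlier results of these data known. Catalytic beta subunits, tested activators, inhibitor and chaperones and the 3 largest called changes per class and comparison are named, and partners with a change of at least 1 in tumor, some of which are not reported here.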

Additional observations from a re-analysis of the deposited data

How the results depend on the processing

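The fits were repeated with other filters, pseudocounts, scalings and variance settings, limma-voom on recovered reads, a replicate block and without each library. Of 58 calls of members, 34 were kept in every alternative. Of the counts of members that follow, only those with plain totals and without tumor replicate 1 were set against all genes above. For the other settings the share of all genes called is not given. Those counts therefore cannot tell a change of the members from a shift of all genes. For members higher in tumor than in blood, the count was 12 of 26 tested with a stricter filter (log2 FPKM over 2). Members lower in tumor than in blood were 5 with median centring, 0 with plain totals and 2 to 5 without single libraries. Members higher in tumor than in bone marrow were 1 with the stricter filter, 4 with quantile normalization, 12 with plain totals and 1 to 3 without single libraries, and members lower were 4 with plain totals and 6 to 15 without single libraries, the highest without tumor replicate 1. With plain totals the difference changed sign for 12 of 37 members in tumor against bone marrow, 3 in tumor against blood and 0 in blood against bone marrow, since the scaling shifts all genes alike. Among these, a call was involved for Psmc3 (to 0.36) and Psmd6 (to 0.0795). The study took the compartments from the same mice, but no source used here ties equal replicate numbers to the same pool, so no pairing was assumed. Libraries of the same number had correlations of their deviations of -0.071 to 0.108. These values cannot decide on pairing, since an effect of the pool on some genes could leave correlations over all genes low. A replicate block ended the call of Psmd6 in tumor against bone marrow (adjusted p of limma 0.0759). It added Psmb10 (0.0496) and Psmd3 (0.0359) in tumor against blood and Psme2 (0.023) in tumor against bone marrow. All other calls of members stayed the same with the block. Depth limits Psmg1 to Psmg4, and 11 members have exons that overlap another gene.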
